A study of Mus musculus with 4 samples.

Results

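Transcripts of 93 nuclear genes of oxidative phosphorylation were examined in the livers of 4 mice. The genes were all rows of the deposited expression table whose symbol begins with Nduf, Uqcr, Cox4 to Cox8 or Atp5, or is Sdha, Sdhb, Sdhc, Sdhd or Cyc1, and they were 93 of 24138 rows. They comprised 84 genes for subunits of the respiratory complexes and of the ATP synthase, 7 genes of the Ndufaf series, which encode assembly factors of complex I, and 2 further genes matched by name, Atp5s and Atp5sl. The rule is one of symbols and used no measured value. It does not take in some subunits with other symbols, such as Usmg5, a membrane subunit of the ATP synthase (322 ± 18.8 FPKM, SD, n = 4), and 2010107E04Rik (312 ± 29.8 FPKM). Rows on the mitochondrial chromosome numbered 0, so the subunits encoded there were not analysed here.

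All 4 animals were male C57BL/6J mice aged 18 weeks. Each had been given the FAT-MASH diet, which models metabolic dysfunction-associated steatohepatitis, a disease of fat, inflammation and scarring in the liver, and resolvin D1 (RvD1), a lipid mediator made from an omega-3 fatty acid. Livers given the diet alone, RvD1 alone or neither were not analysed here, so the 4 samples form 1 group, no test between groups was possible, and the values show neither an effect of the diet nor one of RvD1. Values are in FPKM, fragments scaled by transcript length and by library size, a per-length scale on which levels of different genes can be set side by side. Coordinates of genes are those of the deposited table, on mm10, with 1 added to the start.

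Oxidative phosphorylation takes place in the inner mitochondrial membrane. Complex I takes electrons from NADH and complex II from succinate. Both pass them to coenzyme Q, complex III passes them on to cytochrome c, and complex IV hands them to oxygen. Complexes I, III and IV pump protons, and the ATP synthase, also called complex V, uses the returning protons to make ATP. Most subunits are encoded in the nucleus, and hepatocytes, which hold many mitochondria, rely on the pathway to power the synthesis of glucose and urea.

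The depth of the 4 libraries was estimated roughly, from the value that 1 fragment contributes to lowly expressed genes. It came to 17.9 to 19.5 M fragments (M, mega), at which 1 fragment on a transcript of 1 kb is worth 0.0512 to 0.0558 FPKM. Between 63 and 108 genes a liver entered, and only with values inside a set range. That range bounds the result, so the estimate cannot show whether the libraries were alike in size. Liver 4 had the highest summed FPKM, 570681, against 516816 to 524394 in the other livers. Of 10 hepatocyte markers 9 reached 1 FPKM, and Alb, the albumin gene, was listed at 0 in all 4 livers. A value of exactly 0 in this table can therefore be a failed estimate.

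Of the 93 genes, 88 had a mean of at least 1 FPKM, beside 43.7% of all rows. Together the 93 genes held 3.71 ± 0.092% of the summed FPKM (SD, n = 4), at 3.63%, 3.80%, 3.62% and 3.77% in livers 1 to 4. Without the 100 highest genes the share was 5.88%, and Alb, listed at 0, adds nothing to the sum. A level of 100 FPKM was reached by 64 of the 88, beside 808 of all 10541 genes with at least 1 FPKM. Among the 88, 74 reached 50 FPKM, whereas 13.3% of all genes with at least 1 FPKM did. Each of those 74 was a subunit gene. The 5 genes below 1 FPKM were Cox4i2, Cox6a2, Cox8b, Cox8c and Cox7b2, all of them isoform genes of cytochrome c oxidase.

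**Figure D1:**
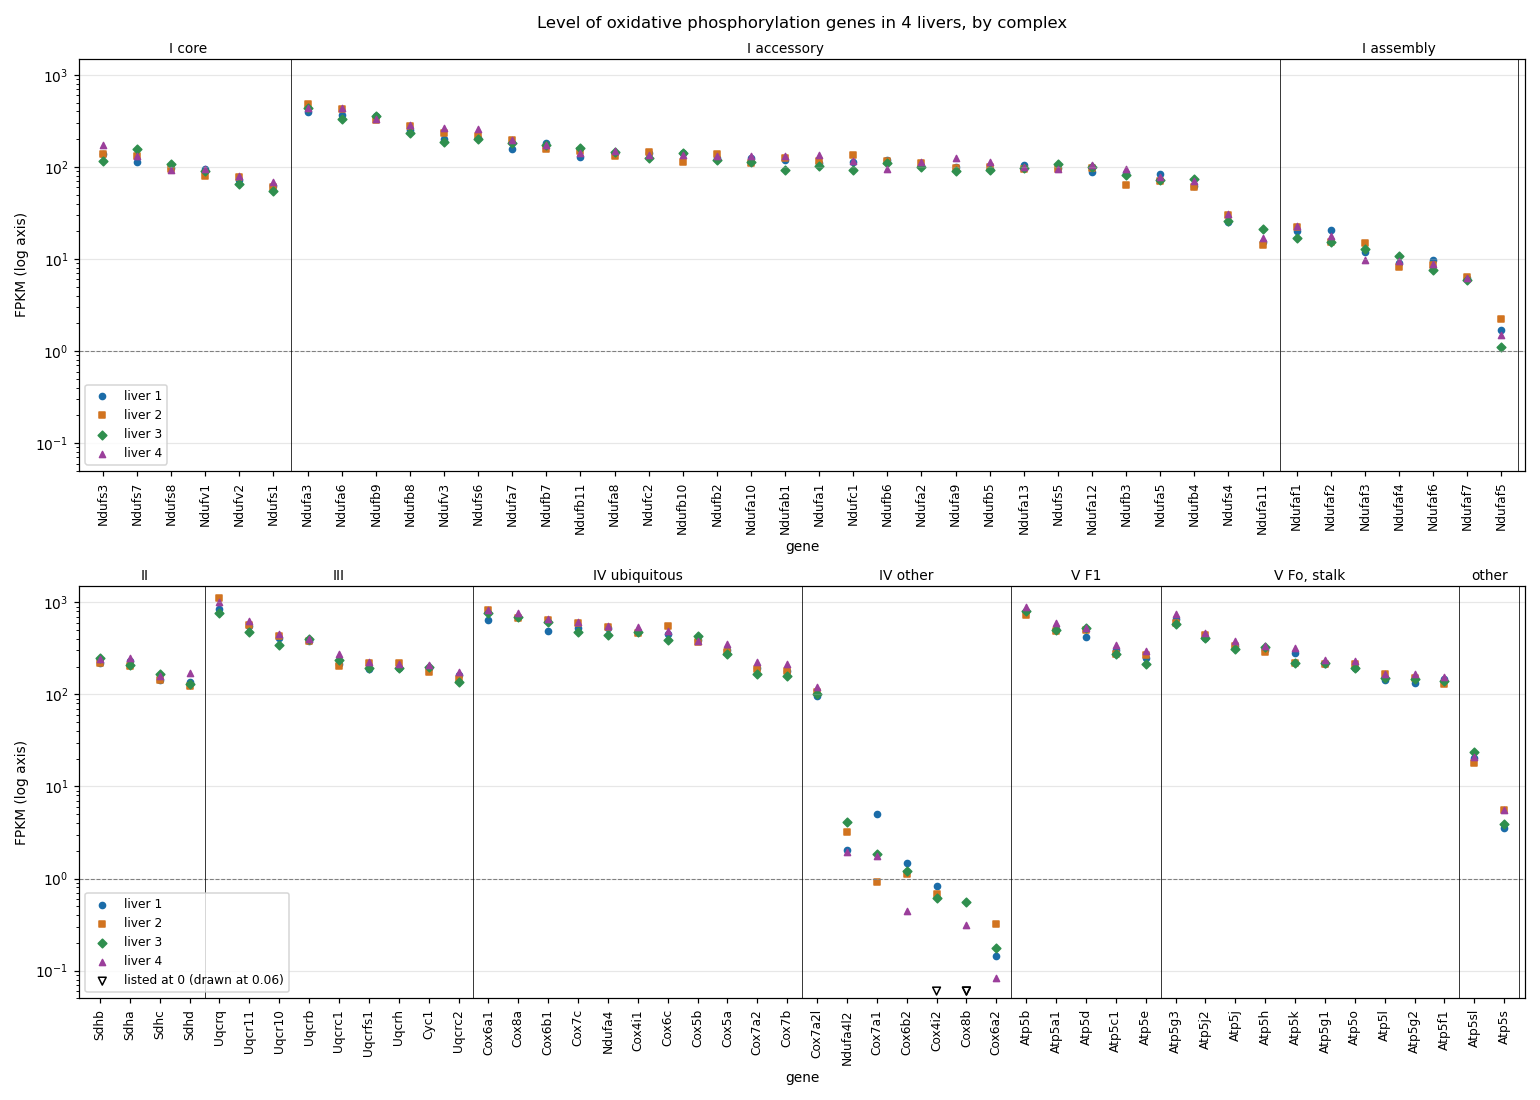
Level of single genes in each of 4 livers, in FPKM on a log axis, grouped by complex and ordered by mean; points are single livers, open triangles mark a value listed at 0, the dashed line is 1 FPKM, and Cox8c and Cox7b2, at 0 in all livers, are among the genes left out. Subunit genes lie mostly above 50 FPKM, and the isoform genes of complex IV and the complex I assembly factors lie lower.

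Complex I has 7 conserved core subunits encoded in the nucleus, which carry the electron path from NADH to coenzyme Q. The median of their means was 97.9 FPKM. Ndufs1, the largest core subunit and a holder of iron-sulfur clusters, was the lowest, at 62.1, 60.6, 54.8 and 68.5 FPKM in livers 1 to 4. Ndufs3 stood at 137, 137, 115 and 173 FPKM and had the widest spread of the core, an SD of 0.24 for log2(FPKM + 1). Ndufs8 had the narrowest, with 96.5, 94.03, 107 and 93.7 FPKM and an SD of 0.09 on that scale.

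Ndufv1 encodes the flavoprotein that oxidises NADH, and Ndufv2 its iron-sulfur partner. Ndufv1 had 94.7, 79.97, 91.4 and 94.5 FPKM and Ndufv2 had 72.4, 77.03, 65.1 and 80.4 FPKM. Ndufv1 was above Ndufv2 within each liver, by 1.23 ± 0.159 times, although their ranges overlapped between animals. Ndufs7, a subunit of the coenzyme Q module, had 113, 131, 157 and 130.0 FPKM. The deposited span of Ndufs7, chr10:79697305-80369637, is shared by 49 rows, Atp5d among them, and both values are uncertain for that reason. In all 14 of the 93 genes share their span with another row, and the same limit holds for Ndufs1, Ndufb11, Ndufa10, Ndufa2, Ndufa13, Uqcrc2, Ndufa4l2, Cox4i2, Cox6a2, Atp5b, Atp5j and Atp5f1.

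The 29 accessory subunits of complex I, which surround the core, had a median of 117 FPKM and covered a wider range, from 16.9 to 439 FPKM. Ndufa3, a small membrane subunit, was the highest, at 398, 480.0, 440.5 and 439 FPKM. Ndufa11, a membrane subunit at the junction with complex III in supercomplexes, was the lowest, at 15.2, 14.4, 20.96 and 16.9 FPKM, and Ndufs4, which is needed for a stable NADH-oxidising module, was next with a mean of 27.9 ± 2.902 FPKM (SD, n = 4). Every other accessory subunit had a mean of at least 66.4 FPKM. Ndufb3 varied most between animals, with 86.1, 64.2, 81.9 and 93.8 FPKM and an SD of 0.23 on the log2 scale. Ndufa13 varied least, with 106, 95.8, 96.9 and 100.1 FPKM and an SD of 0.07.

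The 7 Ndufaf genes encode proteins that build complex I and leave it once it is complete. Their median was 9.30 FPKM, and their highest mean, 20.6 FPKM for Ndufaf1, was below that of 35 of the 36 complex I subunit genes and above that of Ndufa11. Ndufaf1 had 20.03, 22.2, 17.1 and 22.9 FPKM. Ndufaf5, a factor that modifies a core subunit, was the lowest and the most variable, at 1.69, 2.25, 1.11 and 1.48 FPKM. Ndufaf7, which methylates a core subunit, was steady at 6.18, 6.45, 5.93 and 6.21 FPKM, an SD of 0.04 on the log2 scale.

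Complex II is the succinate dehydrogenase of the citric acid cycle and has 4 subunits, all nuclear. Sdha, the flavoprotein that oxidises succinate, had 231, 203, 207 and 247 FPKM. Sdhb, the iron-sulfur subunit, had 221, 219, 246 and 245 FPKM, and the ratio of Sdha to Sdhb was 0.955 ± 0.091, above 1 in livers 1 and 4 and below 1 in livers 2 and 3. The membrane anchors were lower, Sdhc with 143, 144, 166 and 160.2 FPKM and Sdhd with 137, 123, 128 and 169.7 FPKM. Each catalytic subunit was above both anchors in every liver, and Sdhb was 1.69 ± 0.205 times Sdhd (SD, n = 4).

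Complex III had 9 genes with means from 155 to 933 FPKM. Uqcrq, a small subunit next to cytochrome b (chr11:53428948-53430831), was the highest of all 93 genes, at 847, 1103, 768 and 1012 FPKM, and it also had the widest spread within the complex, 0.24 on the log2 scale. Uqcrb, which binds coenzyme Q together with cytochrome b, had the narrowest spread of the 88 genes, with 379, 384, 396 and 403 FPKM. The catalytic subunits were close to each other. Cyc1, cytochrome c1, had 196, 175, 198 and 207 FPKM and Uqcrfs1, the Rieske iron-sulfur protein, had 187, 217, 195 and 226 FPKM, a ratio of 0.945 ± 0.109 that fell on both sides of 1. The 2 large core proteins differed, with Uqcrc1 at 216, 201, 236 and 274 FPKM and Uqcrc2 at 164, 148, 136 and 174 FPKM. Uqcrc1 was higher in each liver, by 1.498 ± 0.195 times.

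The catalytic centre of complex IV, cytochrome c oxidase, is encoded in mitochondrial DNA, and the nuclear subunits surround it. The 11 ubiquitous nuclear subunits, with Ndufa4 counted among them, had a median of 491 FPKM, and took 26.1 ± 0.51% of the summed FPKM of the 93 genes (SD, n = 4). Cox6a1 led with 646, 817, 768 and 831 FPKM. Cox8a, the smallest in spread, had 695, 681, 685 and 769 FPKM, with liver 4 apart from the others. Cox6b1, which faces cytochrome c, had 484, 636, 612 and 650.4 FPKM, with liver 1 the lowest. Cox7c, a small membrane subunit, had 525, 593, 475 and 613 FPKM. Ndufa4, once assigned to complex I, had 522, 539.9, 445 and 548 FPKM, and Cox6c, the most variable of the 11, had 455, 553, 392 and 493 FPKM. In all 3 of the last named genes liver 3 was the lowest.

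Cox4i1, the largest nuclear subunit, had 481, 468, 476 and 540.1 FPKM. Cox5a and Cox5b enter the complex early in assembly. Cox5a had 306, 289, 273 and 354 FPKM, and Cox5b had 385, 374, 430.3 and 379.5 FPKM. Cox5b was above Cox5a in each liver, by 1.30 ± 0.208 times, and Cox4i1 was 1.62 ± 0.094 times Cox5a (SD, n = 4). The lowest of the ubiquitous subunits were Cox7a2, with 194, 188, 168 and 224 FPKM, and Cox7b, with 182, 179, 157 and 215 FPKM, and both were lowest in liver 3 and highest in liver 4.

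Several subunits of complex IV exist in a second form that is used mainly by other tissues. Cox6a2, Cox7a1 and Cox8b are the heart and skeletal muscle forms, Cox4i2 is known from lung and from cells short of oxygen, and Cox6b2, Cox7b2 and Cox8c are known from testis. Where the second form had a value above 0, it was at most 2.52% of the sum of its pair, and a value listed at 0 is not read as absence. Cox7b2 and Cox8c were listed at 0 in all 4 livers. Cox8b was listed at 0 in livers 1 and 2 and at 0.553 and 0.317 FPKM in livers 3 and 4, so its mean of 0.218 FPKM fell to 0.106 FPKM without liver 3. Cox4i2 had 0.835, 0.679 and 0.608 FPKM in livers 1 to 3 and was listed at 0 in liver 4. Cox6a2 had 0.143, 0.323, 0.176 and 0.0822 FPKM. These levels rest on few fragments.

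Cox6b2 had 1.46, 1.13, 1.201 and 0.449 FPKM, which was 0.301%, 0.177%, 0.196% and 0.0691% of the sum of Cox6b1 and Cox6b2 in livers 1 to 4. Cox7a1 (chr7:30184171-30186030) was the most variable of the 88 genes with at least 1 FPKM, at 5.01, 0.908, 1.83 and 1.75 FPKM, or 2.52%, 0.480%, 1.08% and 0.774% of the sum of Cox7a1 and Cox7a2. Liver 1 stood above the other livers, and without it the mean of Cox7a1 fell from 2.38 to 1.497 FPKM. Genes that define striated muscle were at or near 0 in the same libraries: none of 6 markers reached 1 FPKM, their summed FPKM lay between 0 and 0.452, and in liver 1 it was 0.0799. The 5 adipose markers summed to between 0.127 and 0.506 FPKM, with Plin1, Ucp1 and Retn listed at 0, and the 4 testis markers were all listed at 0.

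Ndufa4l2, a relative of Ndufa4 that is known to be induced by low oxygen, had 2.03, 3.23, 4.11 and 1.95 FPKM, between 0.354% and 0.916% of the sum of the pair. In liver 3 Ndufa4 had its lowest value and Ndufa4l2 its highest. The share of G and C bases in the transcript was 44.1% for Ndufa4 and 59.3% for Ndufa4l2. Over all genes the deviations in liver 3 also rose with that share, as given below, and its part here was not tested. Cox7a2l, which encodes a protein that links complexes III and IV, is grouped with the isoforms by name but was expressed at the level of a subunit, with 96.4, 107, 102 and 119 FPKM.

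**Figure D2:**
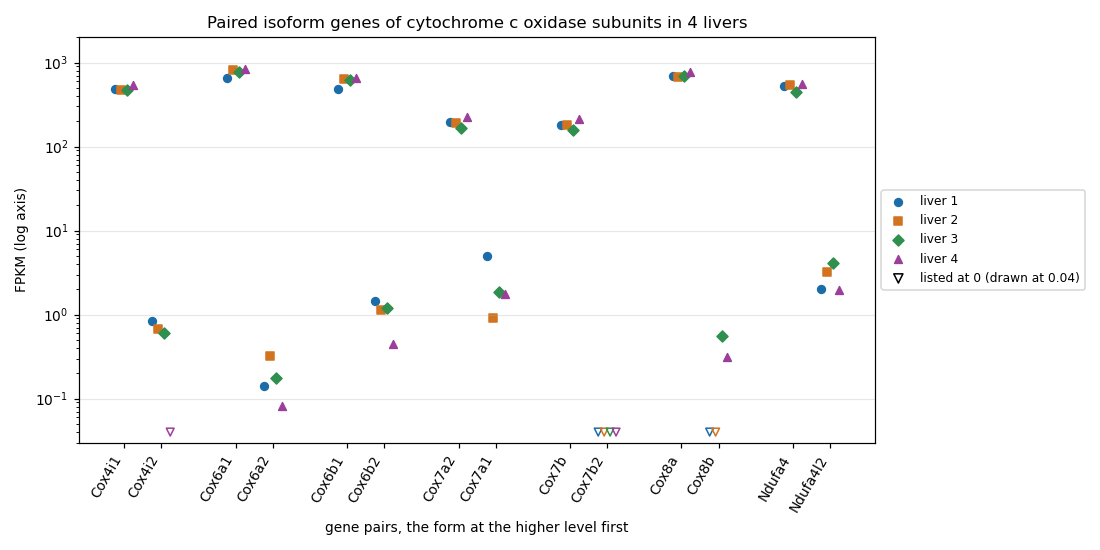
FPKM on a log axis of paired complex IV genes in each of 4 livers, with the form at the higher level first in each pair; points are single livers and open triangles mark values listed at 0. The second form stays at or below 5.01 FPKM, and Cox7a1 in liver 1 is its highest point.

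The ATP synthase has a catalytic head, F1, and a membrane part, Fo, joined by stalks. The 5 genes of F1 had a median of 494 FPKM. Atp5b, the catalytic β subunit, had 812, 719.8, 807 and 879 FPKM and was the highest, and Atp5a1, the α subunit, had 508, 492, 501 and 595 FPKM. Both proteins occur in equal number in the head, and their transcripts stood at a ratio of 1.54 ± 0.078, above 1 in all 4 livers. Atp5c1, the γ subunit that turns inside the head, had 304, 272, 278 and 339.6 FPKM, so that Atp5b was 2.702 ± 0.141 times and Atp5a1 1.76 ± 0.065 times Atp5c1 (SD, n = 4). Atp5d, the δ subunit, had 416, 504, 532 and 526 FPKM, with liver 1 the lowest, and Atp5e, the ε subunit, had 249, 269, 213 and 294 FPKM. The ratio of Atp5e to Atp5c1 was 0.859 ± 0.095 and was below 1 in every liver.

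The 10 genes of Fo and the stalks had means from 142 to 645 FPKM with a median of 241 FPKM. Atp5g3 was the highest, and Atp5f1, the b subunit of the outer stalk, was the lowest, with 146, 129.6, 138 and 153 FPKM. Atp5k, the e subunit, varied most, with 281, 221, 222 and 319 FPKM. Atp5sl and Atp5s, which are not structural subunits of the enzyme, had 20.7 ± 2.44 FPKM and 4.63 ± 1.07 FPKM (SD, n = 4).

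Subunit c forms the rotating ring of Fo and is encoded by 3 genes that differ in the peptide that directs the protein to mitochondria. Their coding sequences are shown because near-identical genes can exchange reads, and the letters show where they can be told apart. The last 90 coding bases of each, from GENCODE vM21 on GRCm38, are printed with capitals at the 24 positions where not all 3 genes carry the same base.
Atp5g1: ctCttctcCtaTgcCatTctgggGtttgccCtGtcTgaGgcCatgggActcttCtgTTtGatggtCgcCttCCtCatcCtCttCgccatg
Atp5g2: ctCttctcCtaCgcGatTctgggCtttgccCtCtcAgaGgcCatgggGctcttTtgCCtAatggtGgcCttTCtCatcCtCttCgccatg
Atp5g3: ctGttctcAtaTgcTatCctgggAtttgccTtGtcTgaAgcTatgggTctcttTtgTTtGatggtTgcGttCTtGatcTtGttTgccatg
Over the last 225 coding bases Atp5g1 and Atp5g2 were identical at 84.9% of positions, Atp5g1 and Atp5g3 at 80.0%, and Atp5g2 and Atp5g3 at 78.7%. Of the 34, 45 and 48 differences in these pairs, 32, 41 and 44 fell on the third position of a codon. The longest run of bases shared by transcripts of these pairs was 21, 11 and 9 bases.

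Atp5g3 (chr2:73908447-73911326) supplied the most of the 3 transcripts in each liver, at 659.6, 602, 583 and 737 FPKM. Atp5g1 (chr11:96072793-96075694) had 214, 216, 219.7 and 239 FPKM, and Atp5g2 (chr15:102662868-102671047) had 132, 152, 147 and 168 FPKM. As a share of the summed FPKM of the 3 genes, Atp5g3 held 63.4 ± 1.97%, Atp5g1 21.9 ± 1.02% and Atp5g2 14.8 ± 1.14% (SD, n = 4), and the order was the same in every liver. Atp5g2 shares 87.4% of its 50-base words with transcripts of another annotated gene, Gm10175, and its level is uncertain, as are those of Atp5l (68.5%), Ndufa12 (53.8%) and Cox7c (53.0%). No other gene shared over 50% of its words, and 54 genes shared none.

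Between animals the 88 genes with at least 1 FPKM had a median SD of 0.14 for log2(FPKM + 1), beside 0.16 over all 10541 genes with at least 1 FPKM. The median of the means was 154 FPKM for the 88 and 7.83 FPKM for all genes. Comparisons with all genes in this paragraph are therefore not matched for level. The order of these medians turned with a pseudocount of 5, at 0.13 against 0.11, without liver 2, at 0.154 against 0.151, and with no minimum, at 0.140 against 0.139. An SD of at least 0.25 was found for 6 of the 88, Ndufaf5, Ndufa4l2, Cox7a1, Cox6b2, Atp5k and Atp5s, beside 18.3% of all genes. Of these 6, Atp5k alone encodes a subunit that reached 50 FPKM. The median SD was 0.13 for the 36 complex I subunits, 0.12 for complex II, 0.16 for complex III, 0.17 for the ubiquitous subunits of complex IV and 0.12 for the ATP synthase. In 2 of the 88, Cox8a and Atp5a1, liver 4 lay apart from the other livers by Dixon's ratio, beside 5.46% of all genes with a liver so far apart. After subtraction of the median deviation of the 88 genes in each liver the median SD was 0.12.

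A shift shared by most of these genes appeared in liver 4. There 75 of the 88 genes were above their own mean over the 4 livers, beside 60.8% of all genes, and in livers 1, 2 and 3 the numbers were 32, 39 and 31, beside 47.2%, 45.1% and 47.0%. The share over all genes in liver 4 rose with the level required. With a minimum of 5 FPKM it was 69.8%, beside 74 of 83 of these genes. With no minimum it was 51.2%, beside 76 of 91. Liver 4 held the highest of the 4 values for 52 of the 88, beside 33.3% of all genes, and livers 1, 2 and 3 for 10, 12 and 14, beside 17.9%, 22.0% and 26.8%. The lowest value was in livers 1, 2 and 3 for 19, 30 and 34 of the 88, beside 20.7%, 29.9% and 31.4%. It was in liver 4 for 5, Ndufs8, Ndufb6, Ndufaf3, Ndufa4l2 and Cox6b2, beside 18.1%. The median deviation of the 88 genes from their means was -0.03, -0.02, -0.07 and 0.12 in log2(FPKM + 1) in livers 1 to 4, and that of all genes was -0.01, -0.02, -0.01 and 0.04. With a minimum of 5 FPKM the medians in liver 4 were 0.12 for 83 of these genes and 0.07 for all genes. Because deviations are taken from the mean of 4 values, a high value in 1 liver makes the others negative.

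Within the pathway, every subunit gene of complexes II and III and of both parts of the ATP synthase was above its mean in liver 4, 4 of 4, 9 of 9, 5 of 5 and 10 of 10, beside 60.8% of all genes. Among the ubiquitous subunits of complex IV 10 of 11 were, with Cox5b the exception. In complex I, 5 of 7 core and 24 of 29 accessory subunits were above their mean. Of the 7 Ndufaf genes 5 were. Only 1 of the 4 expressed genes grouped as other complex IV isoforms was, Cox7a2l. The median deviation in liver 4 was largest for F1, 0.19, and was 0.14 for complex III, 0.14 for the ubiquitous subunits of complex IV, 0.13 for the complex I core and 0.08 for the complex I accessory subunits. It was 0.13 for Fo and the stalks and 0.12 for complex II. For the Ndufaf genes it was 0.02 and for the other complex IV isoforms -0.25, both below the 0.04 of all genes.

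**Figure D3:**
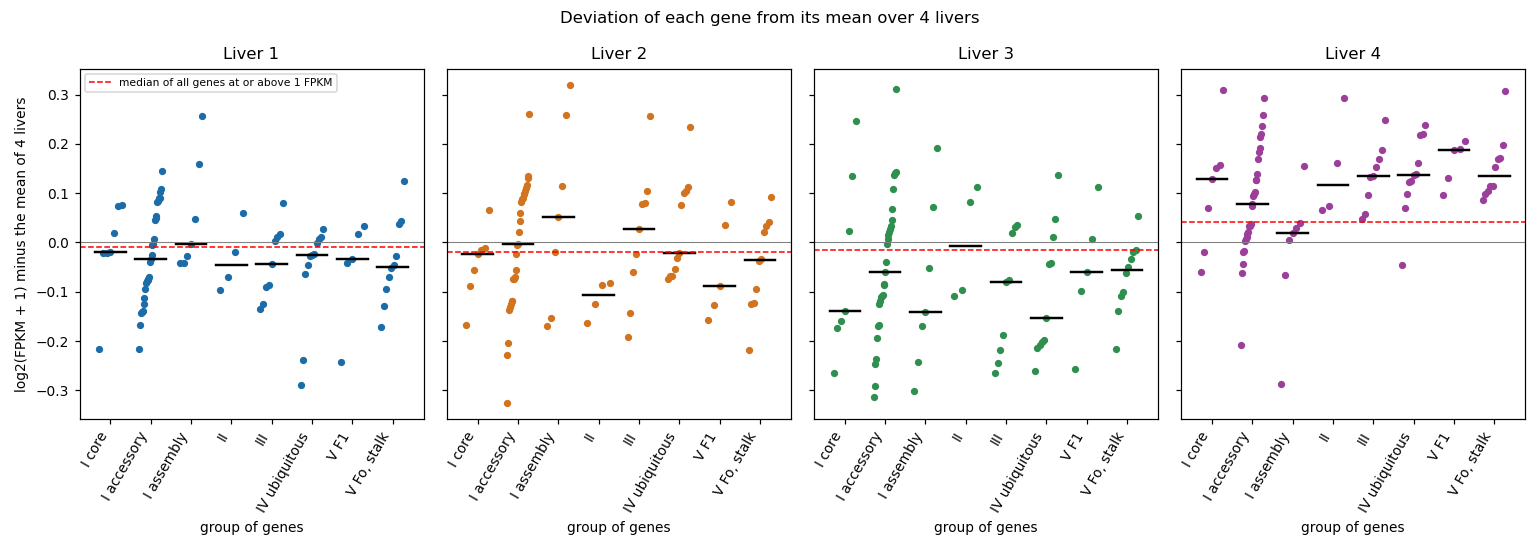
Deviation of each gene from its mean over the 4 livers, in log2(FPKM + 1), by group of genes, with 1 panel per liver; points are genes whose mean reached 1 FPKM, black bars are group medians and the red dashed line is the median of all genes. In liver 4 all 8 group medians lie above 0, and the other complex IV isoforms, Atp5s and Atp5sl are not drawn.

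Scaling a column moves all its genes alike, so these counts change with the scaling and are read beside those of all genes. With columns divided by median-ratio factors, 67 of the 88 genes were above their mean in liver 4, beside 54.0% of all genes, and 43 had their highest value there, beside 27.1%. The median deviation in liver 4 was then 0.08 against 0.02 for all genes. With columns scaled to the same sum 48 were above their mean in liver 4, beside 38.1%, and 48 in liver 2, beside 51.6%. The highest value was then in liver 4 for 23 of the 88 and in liver 2 for 29, beside 15.6% and 28.4% of all genes. The median deviation under that scaling was 0.02 in liver 4 and 0.01 in liver 2, against -0.04 and 0.01 for all genes. By complex, the subunit genes above their mean in liver 4 were then 2 of 4 for complex II, 6 of 9 for complex III, 8 of 11 for the ubiquitous subunits of complex IV, 4 of 5 for F1, 8 of 10 for Fo and the stalks, and 4 of 7 core and 13 of 29 accessory subunits of complex I, each beside the 38.1% of all genes. Of the 7 Ndufaf genes 1 was, and of the 4 expressed other complex IV isoforms 1. The deposited columns of the 4 libraries do not have the same sum, and which scaling reflects the amount of RNA per cell was not tested. Levels of cell type markers also differed between livers, and their part in the shift was not tested. Of the 9 expressed hepatocyte markers 7 were above their mean in liver 4, beside 60.8% of all genes, and their summed FPKM, most of which comes from Apoa1, Ttr and Cyp2e1, was 34196 in liver 4 and 25499 to 28176 in the other livers. In liver 4, 4 of 6 macrophage and 4 of 5 endothelial markers were above their mean, with median deviations of 0.11 and 0.10, but these medians were higher in liver 2, at 0.17 and 0.40. Of 6 stellate markers 1 was above its mean in liver 4 and 1 in liver 3, with medians of -0.20 and -0.22. None of the 4 cholangiocyte and 3 expressed lymphocyte markers was above its mean in liver 4, with medians of -0.10 and -0.27. Summed FPKM over the livers ran from 363 to 402 for macrophage, 38.9 to 50.01 for endothelial, 188 to 292 for stellate, 17.6 to 21.9 for cholangiocyte and 3.91 to 7.09 for lymphocyte markers. The 3 erythroid marker rows summed to 1076, 829, 427 and 705 FPKM in livers 1 to 4, with median deviations of 0.58 in liver 1, -0.82 in liver 3 and 0.0065 in liver 4. Tat, a hepatocyte marker of that list, was lowest in liver 4, at 780.2, 522.1, 505.3 and 335.4 FPKM in livers 1 to 4. In bulk tissue fewer cells of a type and less RNA per cell cannot be told apart.

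Other gene families of similar size were counted in the same way. Of 75 genes for mitochondrial ribosomal proteins 52 (69.3%) were above their mean in liver 4, near the 60.8% of all genes, with a median deviation of 0.06 beside 0.04. The cytosolic ribosomal set was picked by the start of the symbol, a pattern that other genes, such as those of the Rps6k kinases, also match. Of its 90 genes with at least 1 FPKM 82 (91.1%) were above their mean in liver 4, with a median deviation of 0.11. In liver 2 this cytosolic set had a median deviation of 0.08 and the 88 genes -0.02. These families are given as values and the difference between them was not tested.

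Liver 3 differed from the other livers along the base composition of transcripts. Over all genes its median deviation rose from -0.12 for transcripts with under 45% GC to 0.10 for those with 55% or more. The 88 genes followed the same order, with -0.17 for 11 genes under 45% GC, -0.10 for 26 genes from 45 to 50%, -0.08 for 25 genes from 50 to 55% and 0.02 for 26 genes at 55% or more. In liver 2 all genes ran the other way, from 0.06 to -0.08, and the oxidative phosphorylation genes from 0.07 to -0.02. In liver 4 the 88 genes were above all genes in each of the 4 GC classes, at 0.13, 0.13, 0.13 and 0.08 against 0.07, 0.06, 0.04 and 0.00038. The part of base composition in the levels of single genes was not tested.

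**Figure D4:**
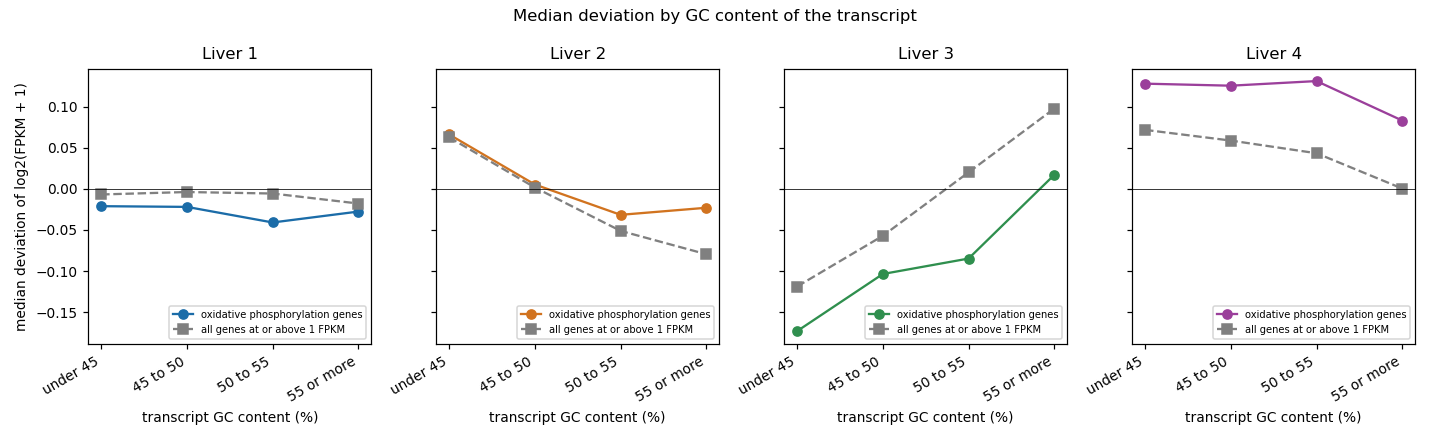
Median deviation from the mean of 4 livers, in log2(FPKM + 1), for transcripts in 4 classes of GC content, with 1 panel per liver; circles are the oxidative phosphorylation genes and squares all genes with at least 1 FPKM. In liver 3 both lines rise with GC content, from -0.17 to 0.02 and from -0.12 to 0.10, and in liver 4 the circles lie above the squares in every class.

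These genes are short. The median transcript length was 921 bases against 2816.5 bases for all genes with at least 1 FPKM, and the median coding length 442.5 against 1341 bases. Across 75 subunit genes, which are not independent replicates, Spearman's rho between transcript length and mean FPKM was -0.26, and between coding length and mean FPKM it was -0.25, beside -0.30 over 10298 genes. FPKM divides by length, so the 2 measures share a term. For the 20 genes with transcripts under 600 bases the median deviation was 0.07 in liver 2, as it was for the 133 genes of that length among all with at least 1 FPKM. In liver 4 it was 0.112 for these 20 against 0.085 for the 133. For transcripts from 600 to 900 bases it was 0.098 against 0.085 for all genes there, and at 900 bases or more 0.127 against 0.041. The part of length in the shift was not tested.

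Promoter sequences were examined because many of these genes are known targets of the factors NRF1, GABP, YY1 and the estrogen-related receptors. RefSeq promoter windows on GRCm38.p6, from 250 bases before to 50 bases after the start, were found for 76 of the 93 genes, 82 windows in all. Both strands were searched for GCGCA followed by any base and GCGC (NRF1), CCGGAAG (the core bound by ETS factors such as GABP), AAGATGGC (YY1) and TCAAGGTCA (ERR), which do not contain one another. The NRF1 motif was in 24.4% of the 82 windows, beside 10.1% of 10969 windows of genes with at least 1 FPKM and 4.60% of all 32851 windows. The YY1 motif was in 14.6% beside 4.61% and 2.75%, and the ETS motif in 20.7% beside 17.7% and 8.86%. Most YY1 matches of these genes lay past the start. Those wholly before it were in Atp5j and Atp5sl, and the windows of Atp5sl overlap and hold the same site. The ERR motif was in 2 of the 82 windows, 2.44%, beside 0.273% and 0.423%. Any of the 4 was in 52.4% of the windows beside 29.0% and 15.1%. Matches are letters in a window and not measured binding, and the median GC content of the windows was 58.0%, 60.7% and 52.7% in the 3 sets. The median of observed over expected CpG pairs, C followed by G, was 0.831, 0.754 and 0.384.

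The following stretches carry such matches in genes of complexes II to V. Among them, Uqcr11 encodes a small subunit of complex III (559 ± 63.8 FPKM, SD, n = 4) and Atp5j a subunit of the outer stalk of the ATP synthase (340.4 ± 29.2 FPKM). The stretches are printed with the motif in capitals, 20 bases on each side, and the strand of the gene, from RefSeq, GRCm38.p6.
Cox6a1, NRF1, 162 bases upstream, chr5:115349091-115349140, minus strand: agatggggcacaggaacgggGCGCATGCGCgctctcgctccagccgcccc
Cox6a1, NRF1, 117 bases upstream, chr5:115349046-115349095, minus strand: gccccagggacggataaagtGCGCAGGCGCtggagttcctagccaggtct
Sdha, NRF1, 98 bases upstream, chr13:74350309-74350358, minus strand: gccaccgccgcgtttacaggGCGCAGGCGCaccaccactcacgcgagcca
Sdha, NRF1, 55 bases upstream, chr13:74350266-74350315, minus strand: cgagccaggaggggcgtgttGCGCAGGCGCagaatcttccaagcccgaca
Sdhd, NRF1, 79 bases upstream, chr9:50603899-50603948, minus strand: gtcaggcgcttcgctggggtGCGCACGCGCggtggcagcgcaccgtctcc
Sdhd, ETS, 46 bases upstream, chr9:50603869-50603915, minus strand: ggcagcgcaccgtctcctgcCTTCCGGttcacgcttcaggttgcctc
Uqcr11, ETS, 66 bases upstream, chr10:80406861-80406907, minus strand: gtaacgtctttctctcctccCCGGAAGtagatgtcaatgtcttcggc
Atp5j, YY1, 88 bases upstream, chr16:84835037-84835084, minus strand: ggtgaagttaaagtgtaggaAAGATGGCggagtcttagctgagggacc
Atp5g3, ERR, 52 bases upstream, chr2:73911350-73911398, minus strand: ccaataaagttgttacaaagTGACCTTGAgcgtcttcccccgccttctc
These are some of the matches with 20 bases on each side before the start. Closer to the start or past it lay an ETS match in Cox6a1, the highest of the complex IV genes, another NRF1 match in Sdha, an NRF1 match in Atp5g3 and an ERR match in Sdhd. Matches were also found in genes with low levels. Ndufa11, the lowest of the accessory subunits of complex I at 16.9 FPKM, and Ndufaf4, at 9.30 FPKM, each held an NRF1 match. Windows were found for 2 of the 3 muscle isoforms and held fewer CpG pairs than those of the ubiquitous partners, with observed over expected CpG of 0.333 for Cox7a1 and 0.833 for Cox7a2, and of 0.115 for Cox8b and 0.842 for Cox8a. Of the testis forms, Cox6b2 was below Cox6b1, at 0.432 against 0.807, and Cox7b2 was above Cox7b, at 0.564 against 0.368.

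**Figure D5:**
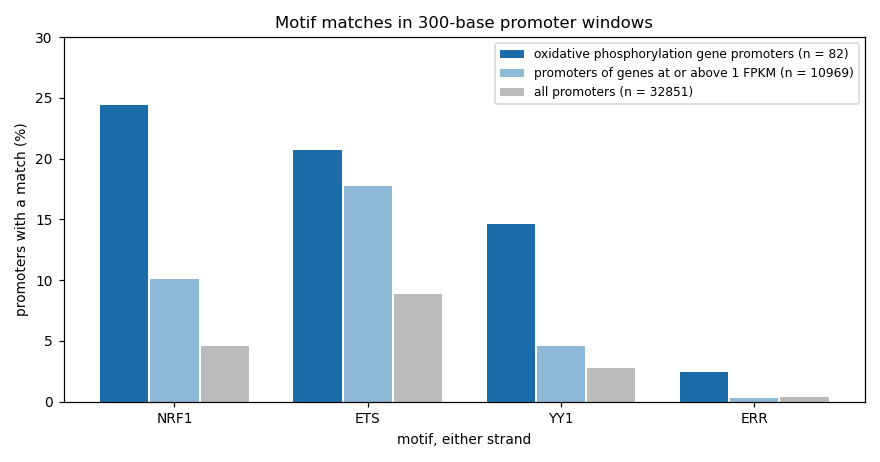
Share of promoter windows, in percent, with at least 1 match to each motif on either strand, for 82 windows of oxidative phosphorylation genes, 10969 windows of genes with at least 1 FPKM and 32851 windows in all. For NRF1 the shares are 24.4%, 10.1% and 4.60%.

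The genes around the pathway were read from lists of its carriers, builders and regulators. Cycs, the cytochrome c that carries electrons between complexes III and IV, had 20.58, 18.4, 19.14 and 21.81 FPKM, and Cyct, its testis form, was listed at 0. All 13 genes of coenzyme Q synthesis were above 1 FPKM with a median of 15.2 FPKM, from 1.99 FPKM for Pdss1 to 71.5 FPKM for Coq9. All 6 other enzymes that feed coenzyme Q were too, with Etfdh, which takes electrons from fatty acid oxidation, at 146.5, 125, 119.3 and 163 FPKM. Of these 13 and 6 genes, 11 and 6 were above their mean in liver 4, beside 60.8% of all genes. Assembly factors outside the Ndufaf series numbered 39 in the table, all above 1 FPKM, with a median of 12.3 FPKM and a highest mean of 103 FPKM for Cox20, and 26 of the 39 were above their mean in liver 4, near that share.

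Regulators of the pathway were low by comparison. All 14 listed were above 1 FPKM, with a median of 6.25 FPKM. Esrra, an estrogen-related receptor, was the highest with 15.8, 13.33, 18.54 and 16.51 FPKM, and the coactivator Ppargc1b was the lowest with 2.02, 1.04, 1.94 and 1.73 FPKM. Of genes that export ATP or uncouple the membrane, Slc25a5, the main ADP/ATP carrier here, had 442.4, 434, 435.8 and 534.9 FPKM and was highest in liver 4. Slc25a4, its muscle form, had 8.88, 11.1, 7.86 and 7.82 FPKM and was lowest there, as was Atpif1, an inhibitor of the ATP synthase, with 16.5, 15.7, 16.1 and 12.7 FPKM. Of the 5 expressed genes of this list 2 were above their mean in liver 4, with a median deviation of -0.07. Ucp1, Ucp3 and Slc25a31 were listed at 0 in all 4 livers.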

How the data were processed

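Poly(A)-selected liver RNA of 4 mice was sequenced. Per the submitters' processing notes, the tools were FastQC 0.10.1, Trim Galore 0.6.3, cutadapt, STAR 2.7.6a and Cufflinks 2.2.1, with build mm10, and the annotation is not given in the sources used here. The authors deposited 1 value per gene and liver, taken here to be FPKM (fragments scaled by transcript length and library size), a unit that Cufflinks, 1 of the tools in those notes, can report. The unit itself is not in the file headers and was read from the values: they are not whole numbers and at low levels scale with the inverse of transcript length. Whole fragment counts were not recovered, so no count test was run and the depth is an estimate. Columns were matched to livers through the sample descriptions, and 0 were left unmatched.

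The log2 of FPKM + 1 was used, which shrinks differences near 1 FPKM, and genes below a mean of 1 FPKM were left out of medians and counts. With 1 group there was no test. Groups of genes are described by counts and medians beside the same over all such genes, and the spread is the SD over 4 livers. Genes were named by a rule that took the core and catalytic subunits, the isoform pairs and, in each group, the highest, the lowest, the most and the least variable. The genes, lists and rules were chosen with earlier results of these data known. Transcript lengths, GC content and shared 50-base words came from GENCODE vM21, and promoter windows from RefSeq on GRCm38.p6. As printed, 51 of 93 gene starts equal the RefSeq start, against 3 without the added base. Alternatives were the pseudocount, the minimum, the scaling, the choice of members and each liver left out. Scaling to the same sum was added after the data were seen. The alternatives for the count above the mean in liver 4 and for single-gene means were not planned beforehand either. Procedures were tested on simulated data in Python 3.11.15 with pandas 2.3.3, numpy 2.4.6 and scipy 1.17.1. Matched genes that the text does not name remain in the counts and medians, and 1 of them is also left out of the plot of levels and not reported here.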

Additional observations from a re-analysis of the deposited data

Results flagged for a closer look

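In 2 of the 88 genes with at least 1 FPKM, 1 liver lay further from the rest than Dixon's ratio allows at the 95% level, beside 5.46% of all genes. Chance alone marks about 1 group in 20. Cox8a was at 769 FPKM in liver 4 and at 695, 681 and 685 FPKM in livers 1 to 3, and Atp5a1 was at 595 FPKM in liver 4 and at 508, 492 and 501 FPKM in livers 1 to 3. In both genes the ratio was 0.831, just past the limit, and the liver that stood apart was the one in which 75 of the 88 genes were above their mean.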

How the results depend on the processing

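No paired analysis was possible because all 4 livers belong to 1 group. The count of genes at or above 1 FPKM, the share of summed FPKM and the median deviations in livers 3 and 4 kept their direction under every alternative run. With columns scaled to the same sum, chosen after seeing the data, the median SD moved from 0.14 to 0.115 (log2 scale), the median deviation in liver 4 to 0.017, that in liver 2 changed sign to 0.0081, and 48 rather than 75 genes were above their mean in liver 4, beside 38.1% rather than 60.8% of all genes. Without the 100 highest genes the share of summed FPKM moved from 3.71% to 5.88%. Leaving out 1 liver in turn gave a median SD of 0.113 (without liver 4) to 0.154, and median deviations of -0.056 to 0.0056 in liver 1, -0.038 to 0.026 in liver 2, -0.076 to -0.039 in liver 3 and 0.099 to 0.115 in liver 4. The signs in livers 1 and 2 turned without liver 4. The number of genes above their mean in liver 4 was then 69 to 74, the share of summed FPKM 3.68% to 3.73%, and 87 or 88 genes had at least 1 FPKM. Cox7a1 without liver 1 and Cox8b without liver 3 changed by over 1.5 times, and the other single-gene means did not. Levels under about 1 FPKM rest on few fragments, most so on short transcripts.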
